A study of Mus musculus with 10 samples.

Results

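The expression and chromatin signal of 10 transcription factor genes that pattern the diencephalon, the midbrain and the rostral hindbrain were followed in mouse brain NSPCs (neural stem and progenitor cells): Foxb1, Lmx1b, En1, En2, Otx1, Otx2, Barhl2, Gata3, Pax3 and Pax7. They were found by symbol among 57180 genes of the RNA-seq table, and by the assigned gene name among 69418 regions of the CUT&Tag table, of which 25 carry the name of a member. The genes were chosen as a regional group with the RNA difference between Mina53-KO and WT cells in view, so their RNA values are given as a description, from which no test is read, and the CUT&Tag values, which were not used in the choice, are tested. RNA-seq of poly(A) RNA covered 3 Mina53-KO and 3 WT libraries. CUT&Tag, in which an antibody brings a transposase to a chromatin feature and the cut DNA is sequenced, covered 2 Mina53-KO and 2 WT libraries. All groups carry the labels brain, NSPCs and treatment non. The gene of Mina53 is Riox2; the protein has a JmjC domain, and the title of the series links it to the arginine mark H4R3me2a. The labels give no brain region, age, spike-in or CUT&Tag antibody, and do not say how the KO was made. Nor do they tie each library to an animal or culture of its own, so a p-value here reflects the spread between libraries, which may be technical.

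Regional identity in the neural tube is set by transcription factors that are expressed in overlapping domains from front to back. Otx factors mark forebrain and midbrain, and engrailed factors mark the midbrain and the first hindbrain segment on both sides of the isthmus, a narrow signalling centre at the midbrain-hindbrain boundary. Foxb1, Barhl2, Lmx1b, Gata3 and the paired-box genes Pax3 and Pax7 subdivide these domains or mark particular progenitors and neurons in them. Cultured NSPCs are known to keep part of the regional code of the tissue from which they came.

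Promoter sequences from RefSeq (build GRCm38.p6), each covering 250 bases before to 50 bases after an annotated start, were matched by symbol for 6 members, with 9 windows in all, 4 of them for Otx2. The windows of Lmx1b, Barhl2 and Otx2 are printed because the RNA of the first pair was several-fold lower in KO cells while Otx2 was the most abundant member in every library. Lmx1b lies at chr2:33641049-33641348 and Barhl2 at chr5:106458117-106458416, both on the minus strand, with each CpG in capitals. The printed Otx2 window lies at chr14:48665060-48665359 on the minus strand. In capitals are the homeodomain core TAATTA (its own reverse complement) and the Otx motif TAATCC (here read on the other strand), where the matches share no bases. Of the 4 Otx2 windows, this one has the most matches, 3 TAATTA and 1 TAATCC. The others have 1, 0 and 0 TAATTA and 0 TAATCC.
Lmx1b: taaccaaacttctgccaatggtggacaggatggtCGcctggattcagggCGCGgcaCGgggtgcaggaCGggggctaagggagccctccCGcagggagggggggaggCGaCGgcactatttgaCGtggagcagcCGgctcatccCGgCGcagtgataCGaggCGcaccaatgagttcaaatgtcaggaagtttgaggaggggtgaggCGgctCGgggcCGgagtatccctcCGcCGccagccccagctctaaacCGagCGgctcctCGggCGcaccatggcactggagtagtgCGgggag
Barhl2: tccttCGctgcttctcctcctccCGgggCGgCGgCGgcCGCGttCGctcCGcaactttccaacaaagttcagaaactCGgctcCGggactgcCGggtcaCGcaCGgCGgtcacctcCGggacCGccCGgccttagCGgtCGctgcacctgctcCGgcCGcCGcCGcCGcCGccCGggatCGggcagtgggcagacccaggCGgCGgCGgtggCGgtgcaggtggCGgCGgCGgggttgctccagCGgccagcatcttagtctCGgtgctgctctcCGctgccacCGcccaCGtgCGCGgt
Otx2: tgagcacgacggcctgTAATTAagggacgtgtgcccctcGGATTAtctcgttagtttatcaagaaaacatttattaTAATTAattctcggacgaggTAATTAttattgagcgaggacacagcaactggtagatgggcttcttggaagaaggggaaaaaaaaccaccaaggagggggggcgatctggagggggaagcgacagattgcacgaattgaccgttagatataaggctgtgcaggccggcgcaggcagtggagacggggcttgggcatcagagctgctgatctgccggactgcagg
The Barhl2 window holds 42 CpG at 73.7% GC and the Lmx1b window 24 CpG at 65.7% GC, while the median of all 32851 windows is 7 CpG at 52.7% GC. En1 (23 CpG), Gata3 (22) and Pax7 (17) also lie above that median, and the 4 Otx2 windows hold 6 to 16 CpG. On either strand, TAATTA occurred in 5.29% of all windows, TAATCC in 7.06%, the GATA motif AGATAA in 11.2% and the forkhead motif TAAACA in 13.4%. Among the members' 9 windows, TAATTA was found in 2, TAATCC in 1 and AGATAA in 2, each of them an Otx2 window, and TAAACA in 0. A match is only a match of letters.

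The RNA-seq libraries held 19923010 to 25939376 counts and the CUT&Tag libraries 2913959 to 4038765 reads in regions. Riox2, the targeted gene, measured 3.26, 3.78 and 3.70 CPM (counts scaled to the effective library size, TMM) in KO libraries, against 20.0, 17.2 and 18.5 CPM in WT libraries. Neural stem and radial glia markers were all measured, with a summed TPM (a level per transcript length) of 9147 to 9834 in KO and 8321 to 8508 in WT libraries. Most of it was Fabp7 (mean 4403 TPM in KO, 4320 TPM in WT), Vim (3312 and 2028 TPM) and Slc1a3 (913 and 1251 TPM). Of these 16 markers, all tested, 1 was called higher and 2 lower in KO, and the median log2 fold change was 0.02. Neuron markers summed to 627 to 645 TPM in KO and 413 to 438 TPM in WT libraries. Most of the sum was Gap43 (mean 325 TPM in KO, 168 TPM in WT) and the uncalled Map2 (274 and 228 TPM). Of 11 tested, 3 were called higher (Nefm, Nefl and Gap43) and 0 lower, and none of these 3 calls held without WT 3. The median log2 fold change was 0.24, and 4 of the 11 were negative. Among these 4, Snap25 (-0.56) had every KO library below every WT library. Neural crest and mesenchyme markers summed to 29.9 to 40.2 TPM in KO and 28.5 to 29.5 TPM in WT libraries. The largest part was the uncalled Prrx1 (mean 22.9 TPM in KO, 12.9 TPM in WT), then Foxc1 (5.23 and 9.31 TPM) and Tfap2a (4.68 and 5.76 TPM). Every other marker of that list, Sox10 and Col1a1 included, had a mean under 1 TPM in both groups. Skeletal muscle progenitor markers (0.334 to 0.49 TPM in KO, 0.355 to 0.486 TPM in WT libraries), T and blood cell markers (0.238 to 0.528 TPM, against 0.0864 to 0.588 TPM) and microglia and endothelial markers (0.284 to 0.393 TPM, against 0.461 to 0.642 TPM) were near 0, with Myf5, Myf6, Cd3e, Cd3g, Cd8a, Cx3cr1, Cdh5 and Cldn5 at 0 counts. Mitochondrial genes took 2.31 to 2.68% of the counts in KO 1, KO 2 and WT 1 and 3.52 to 5.71% in KO 3, WT 2 and WT 3. For the low-share and the high-share libraries, the KO over WT difference is also given separately, as the log2 ratio of mean CPM with a pseudocount of 0.25. WT 1 is the only WT library of the low-share class and KO 3 the only KO library of the high-share class. Each such ratio therefore rests on a single library on one side and carries no measure of spread.

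The summed level of the members was lower in every KO library than in any WT library. It was 22.5, 23.0 and 24.5 TPM in KO libraries, against 72.6, 48.6 and 68.4 TPM in WT libraries. Of the 10 members, 5 reached 1 TPM in each KO library, against 9, 8 and 9 in WT libraries. Otx2 was the highest of them in all 6 libraries. Because these are bulk libraries, fewer cells that express a gene and less RNA per cell cannot be told apart.

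Of the 10 members, 9 passed the low-count filter and 1, Pax7, did not. Foxb1, Gata3 and Pax3 passed only through the WT libraries, and 1, 2 and 0 of their KO libraries reached the filter's 0.407 CPM. All 9 had every KO library below every WT library, a pattern seen in 9.26% of all 15298 tested genes. With edgeR's quasi-likelihood fit and Benjamini-Hochberg adjustment over all tested genes, 7 of the 9 were under an adjusted p of 0.05, all lower in KO, and 0 were higher. Over all tested genes, 525 (3.43%) were under it, 254 (1.66%) lower and 271 (1.77%) higher in KO. The median log2 fold change of the 9 was -1.73, and that of all tested genes 0.01. Since the members were chosen on this contrast, their count is no test of them, and nothing is read from it.

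**Figure D1:**
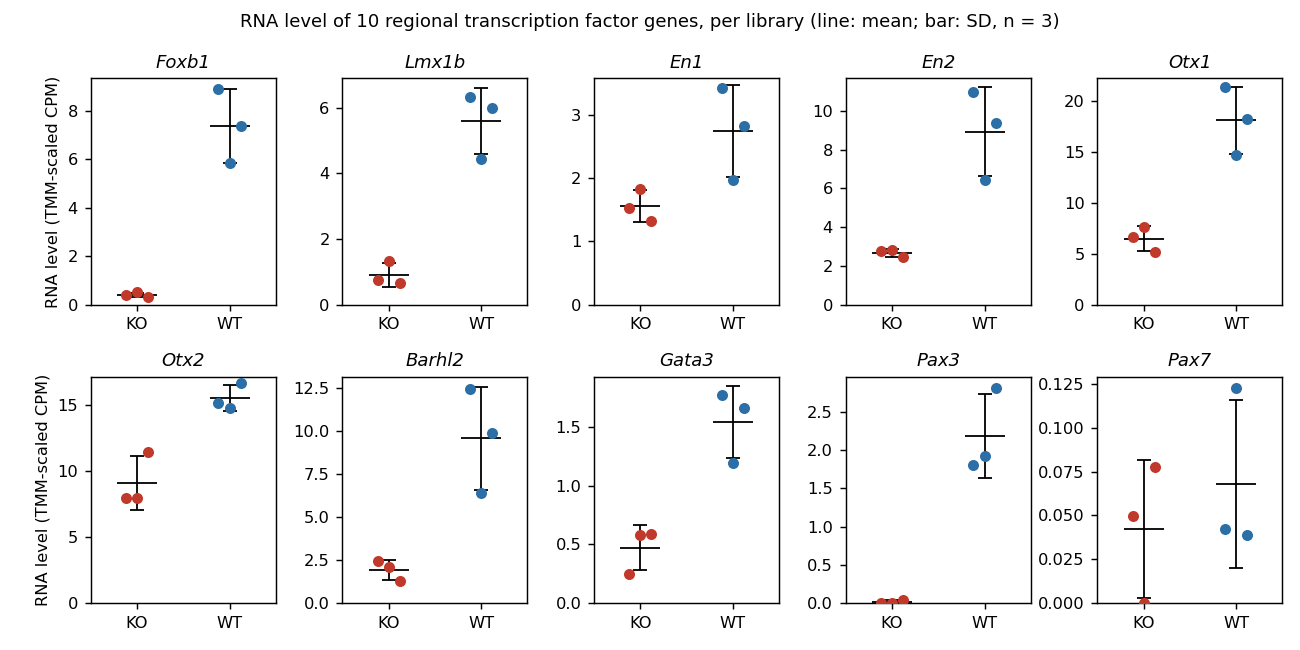
RNA level of the 10 genes in TMM-scaled CPM, a panel each with its own linear axis from 0, with a point per library (3 KO on the left, 3 WT on the right), the mean as a line and the SD as a bar. The groups are fully apart for every gene except Pax7, which has 0 to 0.0778 CPM in KO and 0.0386 to 0.123 CPM in WT libraries.

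Foxb1 (ENSMUSG00000059246), a forkhead factor of the caudal diencephalon known for its part in forming the mammillary bodies, measured 0.395, 0.499 and 0.311 CPM in KO libraries, against 8.91, 5.84 and 7.37 CPM in WT libraries. The highest KO library was far below the lowest WT library. The mean was 0.402 ± 0.0939 CPM in KO and 7.37 ± 1.53 CPM in WT (SD, n = 3 each), which is 18.2-fold lower in KO (log2 fold change -4.18, SE 0.27). The log2 ratio was -3.72 in the libraries with a low mitochondrial share and -3.61 in those with a high share. Part of the deposited Foxb1 counts are not whole numbers, so reads shared with another annotated gene may enter it. In all, 28 Foxb1 counts were seen in the KO libraries and 544 in the WT libraries.

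Lmx1b (ENSMUSG00000038765), a LIM-homeodomain factor needed for the isthmus, for midbrain dopamine neurons and for hindbrain serotonin neurons, measured 0.741, 1.33 and 0.662 CPM in KO libraries, against 6.33, 4.44 and 5.98 CPM in WT libraries. All KO libraries were well below the lowest WT library. Lmx1b was 6.09-fold lower in KO (log2 fold change -2.61, SE 0.30), with -2.36 and -2.58 in the low-share and high-share libraries. Its level per length was 0.419 ± 0.161 TPM in KO and 2.57 ± 0.582 TPM in WT (SD, n = 3 each).

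The engrailed homeodomain factors En1 and En2 maintain the midbrain and rostral hindbrain territory, and in the mouse En1 acts earlier than En2. En2 (ENSMUSG00000039095) measured 2.77, 2.83 and 2.45 CPM in KO libraries, against 11, 6.45 and 9.37 CPM in WT libraries, which is 3.33-fold lower in KO (log2 fold change -1.73, SE 0.23; -1.88 and -1.60 in the low-share and high-share libraries). KO libraries lay close together and WT libraries spread more widely without reaching them. En1 (ENSMUSG00000058665) measured 1.53, 1.83 and 1.32 CPM in KO libraries, against 3.42, 1.97 and 2.82 CPM in WT libraries. The highest KO and the lowest WT value of En1 were close to each other. The En1 difference was 1.75-fold (log2 fold change -0.81, SE 0.27; -0.93 and -0.75 in the low-share and high-share libraries). Per length, the ratio of En2 to En1 TPM was 1.34, 1.15 and 1.37 in KO libraries, against 2.38, 2.43 and 2.47 in WT libraries, so that En2 was the more abundant of the pair in all 6 libraries and by less in KO.

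Otx1 and Otx2 are orthodenticle homeodomain factors. Otx2 is required for forebrain and midbrain and sets the front side of the isthmus, and Otx1 adds to that dose and acts in the cortex. Otx1 (ENSMUSG00000005917) measured 6.62, 7.61 and 5.18 CPM in KO libraries, against 21.3, 14.7 and 18.2 CPM in WT libraries. The groups were well apart, at 6.47 ± 1.22 CPM in KO and 18.1 ± 3.28 CPM in WT (SD, n = 3 each), 2.79-fold lower in KO (log2 fold change -1.48, SE 0.20; -1.55 and -1.62 in the low-share and high-share libraries). Otx2 (ENSMUSG00000021848) measured 7.96, 7.94 and 11.5 CPM in KO libraries, against 15.2, 14.8 and 16.7 CPM in WT libraries. KO 3 stood above the other KO libraries and below every WT library. Otx2 was 1.70-fold lower in KO (log2 fold change -0.77, SE 0.18), with -0.91 in the low-share and -0.44 in the high-share libraries, and -0.98 without KO 3.

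Per length, Otx2 stood at 12.1 ± 2.78 TPM in KO and 20.4 ± 2.28 TPM in WT, and Otx1 at 5.23 ± 0.938 TPM in KO and 14.5 ± 3.25 TPM in WT (SD, n = 3 each). The ratio of Otx1 to Otx2 TPM was 0.510, 0.587 and 0.275 in KO libraries, against 0.857, 0.607 and 0.668 in WT libraries. KO 2 came close to the lowest WT library in this ratio. The antisense partner Otx2os1 had 3, 1 and 2 counts in KO libraries, against 4, 6 and 12 in WT libraries, too few to test, and reads of this overlapping pair may not have been separated, since the counting is not stated to use strand.

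Barhl2 (ENSMUSG00000034384), a BarH-like homeodomain factor of the diencephalon and retina, measured 2.42, 2.08 and 1.25 CPM in KO libraries, against 12.4, 6.41 and 9.87 CPM in WT libraries. No KO library approached the lowest WT library, although WT values spread over a wide range. Barhl2 was 5.02-fold lower in KO (log2 fold change -2.33, SE 0.32; -2.34 and -2.49 in the low-share and high-share libraries). Its counts, too, are not all whole.

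Gata3 (ENSMUSG00000015619), a zinc-finger factor of GABA neurons of the midbrain and hindbrain and of some serotonin neurons, and also of T cells, measured 0.247, 0.582 and 0.584 CPM in KO libraries, against 1.77, 1.19 and 1.66 CPM in WT libraries. The groups did not overlap, and the counts behind them were few, 34 in all KO libraries and 114 in all WT libraries. Gata3 was 3.19-fold lower in KO (log2 fold change -1.68, SE 0.36; -1.61 and -1.01 in the low-share and high-share libraries).

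Pax3 and Pax7 are paired-box factors of the dorsal neural tube, and Pax7 and Pax3 mark the dorsal midbrain. Pax3 (ENSMUSG00000004872) had 0, 0 and 1 counts in KO libraries, against 43, 47 and 73 counts in WT libraries. The gene was thus nearly unread in every KO library and present in every WT library. Summed and divided by effective library size, the level in WT was 154 times that in KO, with an exact 95% counting interval of 27.3 to 6130.0, and the fitted log2 fold change of -6.82 depends on the prior count and is no bound. Pax7 (ENSMUSG00000028736) had 1, 0 and 2 counts in KO libraries, against 1, 3 and 1 counts in WT libraries. At 3 counts or fewer in every library, no difference was detectable for Pax7 at this depth and no fold is given. Counting intervals cover counting error only.

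In order of mean TPM, the WT libraries read Otx2 (20.4), Otx1 (14.5), Barhl2 (9.32), En2 (5.69), Foxb1 (5.55), Lmx1b (2.57), En1 (2.35), Pax3 (1.60), Gata3 (1.08) and Pax7 (0.0858). Of neighbours in that order, En2 and Foxb1, and Lmx1b and En1, differed by less than their SD. In KO libraries the order of mean TPM was Otx2 (12.1), Otx1 (5.23), Barhl2 (1.87), En2 (1.71), En1 (1.34), Lmx1b (0.419), Gata3 (0.330), Foxb1 (0.302), Pax7 (0.0560) and Pax3 (0.00955). Otx2, Otx1, Barhl2 and En2 led in both groups, while Foxb1 and Pax3 stood lower in the KO order. In KO, Barhl2 and En2, Lmx1b, Gata3 and Foxb1, and Pax7 and Pax3 were not apart by more than their SD.

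The next comparison asked how the genes that border the members on the chromosome behaved, which the choice of members did not use. By RefSeq gene order (GRCm38.p6), 16 named genes start within 200 kb of a member, 11 of them were tested, and 1 was called, lower in KO, beside 3.43% of all tested genes called. That gene is Cnpy1, next to En2, known in zebrafish as canopy1 for its part in FGF signalling at the midbrain-hindbrain boundary. Cnpy1 measured 2.13, 2.24 and 3.78 CPM in KO libraries, against 11.9, 14.4 and 14.6 CPM in WT libraries. The KO libraries were all far below the WT libraries, a 4.98-fold fall (log2 fold change -2.32, SE 0.24, edgeR adjusted p = 0.0025), with -2.31 and -1.87 in the low-share and high-share libraries. Cnpy1 stayed under the threshold in all 14 settings, each library left out in turn included.

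Around Lmx1b, Otx1, Barhl2, Gata3 and Pax7, no tested neighbour was called. Foxb1, En1, Otx2 and Pax3 had no tested neighbour, so nothing could be read around them. The median log2 fold change of the 11 neighbours was -0.04. Near Lmx1b, Zbtb34 (-0.06, SE 0.14), Zbtb43 (0.09, SE 0.13) and Mvb12b (0.02, SE 0.17) had log2 fold changes of about 0, whereas Lmx1b itself had -2.61. Next to Otx1, Ehbp1 had a log2 fold change of 0.09 (SE 0.10), and next to Barhl2, Zfp644 had -0.15 (SE 0.17). Also near En2, Rbm33 had -0.02 (SE 0.11) and Insig1 -0.43 (SE 0.10, edgeR adjusted p = 0.0611), these uncalled neighbours being named after their values were seen.

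**Figure D2:**
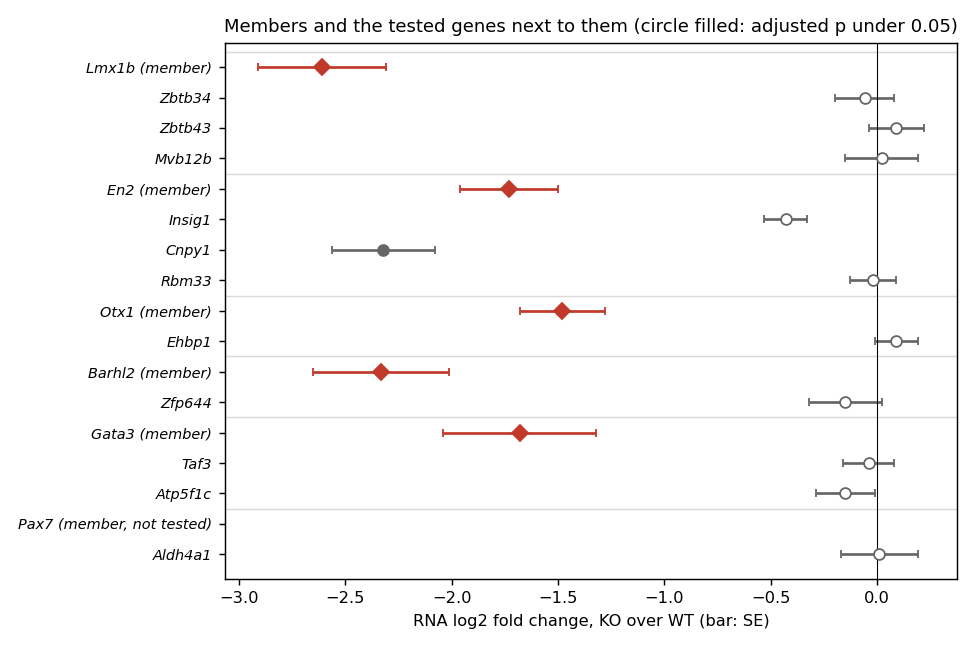
RNA log2 fold change, KO over WT, with its SE as a bar. Diamonds are tested members that have a tested neighbour. Circles are the tested genes next to members, filled where the edgeR adjusted p is under 0.05. Cnpy1, at -2.32, is the filled circle and lies beside En2, at -1.73, while the other neighbours lie between -0.43 and 0.09.

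Other transcription factors of the same brain divisions were read from a list of 49 genes, and these lists too were written with earlier results of these data known. Of the 49, 13 had no count in any library and 16 were tested. Of these 16, 1 rose, 2 fell and 13 did not pass the test, beside 3.43% of all tested genes called. The log2 fold change was negative in 12 of the 16, and in 7475 of all 15298 tested genes. Its median was -0.46 beside 0.01 for all tested genes. Meis2, a TALE homeodomain factor of the midbrain tectum and of forebrain domains, rose to 64.3 ± 4.66 CPM in KO, against 29.7 ± 4.07 CPM in WT (SD, n = 3 each; log2 fold change 1.11, SE 0.14, edgeR adjusted p = 0.00474). Zic1, a zinc-finger factor of the dorsal neural tube, fell to 37.9 ± 2.00 CPM in KO, against 58.5 ± 6.10 CPM in WT (log2 fold change -0.63, SE 0.12, edgeR adjusted p = 0.0297). Its relative Zic5 fell to 5.70 ± 0.556 CPM in KO, against 10.4 ± 1.97 CPM in WT (log2 fold change -0.86, SE 0.18, edgeR adjusted p = 0.046). With 1 library left out, Meis2 was always called, while the Zic1 call held only without WT 2 (adjusted p up to 0.168 without one of the others) and the Zic5 call only without WT 1 (up to 0.206).

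Signals of the isthmus and midline and the feedback genes of FGF signalling made a list of 17, with 10 tested, 1 lower, 0 higher and a median log2 fold change of -0.15. The 1 is Cnpy1 again. Fgf8, the main isthmus signal, had 1, 3 and 1 counts in KO libraries, against 5, 2 and 2 counts in WT libraries, and Wnt1 and Wnt3a had 0 counts in all. Spry4, an FGF feedback inhibitor, measured 209 ± 1.18 CPM in KO and 275 ± 13.2 CPM in WT (SD, n = 3 each; log2 fold change -0.40, SE 0.09, edgeR adjusted p = 0.0599).

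Of 11 genes of midbrain dopamine, serotonin and GABA neurons, 6 were tested, with 1 lower, 0 higher and a median log2 fold change of 0.24. Aldh1a1, a retinaldehyde dehydrogenase that marks part of the midbrain dopamine neurons, fell to 12.9 ± 1.05 CPM in KO, against 36.7 ± 2.12 CPM in WT (SD, n = 3 each; log2 fold change -1.50, SE 0.12, edgeR adjusted p = 0.000651). The call held in all 14 settings. Ddc, the enzyme that completes dopamine and serotonin synthesis, measured 0.863 ± 0.106 CPM in KO and 0.5 ± 0.0443 CPM in WT (log2 fold change 0.79, SE 0.29, edgeR adjusted p = 0.258). Th, the rate-limiting enzyme of dopamine synthesis, had 0, 2 and 0 counts in KO libraries and 0 counts in each WT library.

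Of the listed factors of the telencephalon, 6 of the 10 tested rose, 0 fell and 4 missed the threshold, and the median log2 fold change was 1.61. Pax6, a paired-box factor of forebrain progenitors that is also on the stem marker list, had every KO library below every WT library, at 23.9 ± 1.15 CPM in KO and 33.5 ± 2.14 CPM in WT (SD, n = 3 each; log2 fold change -0.49, SE 0.11, edgeR adjusted p = 0.0571). Six3, an anterior forebrain homeodomain factor, measured 38.1 ± 7.25 CPM in KO and 3.89 ± 0.719 CPM in WT (log2 fold change 3.29, SE 0.21, edgeR adjusted p = 0.000327). Lhx2 (2.35, SE 0.16) and Emx2 (2.43, SE 0.18) rose by similar log2 fold changes, and Dlx1 (1.77, SE 0.33) and Bcl11b (1.40, SE 0.24) by smaller ones. The Six3, Lhx2 and Emx2 calls held without any 1 library, the Bcl11b call was lost without any of the 6, and the Dlx1 call was lost without KO 1, KO 2 or WT 3. Of 39 Hox genes, which mark territory behind the members, 28 had no count and 6 were tested, with 2 higher, 0 lower and a median of 0.15. Hoxa7 rose to 6.82 ± 1.11 CPM in KO, against 0.756 ± 0.264 CPM in WT (SD, n = 3 each; log2 fold change 3.16, SE 0.29, edgeR adjusted p = 0.00125), and Hoxa5 had a log2 fold change of 0.70 (SE 0.15), called with all libraries and otherwise only without WT 1. The neuron marker sum was also higher in KO libraries, with single markers going both ways, and a link to these differences was not tested.

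**Figure D3:**
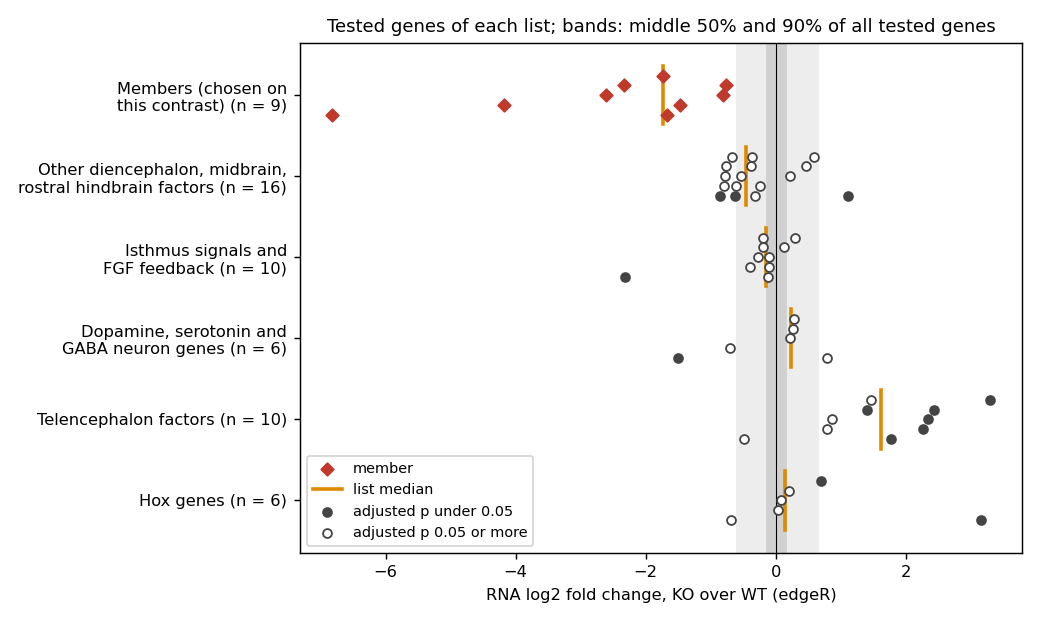
RNA log2 fold change, KO over WT, of every tested gene in 6 lists, with the list median as a line. Members are diamonds, drawn without a call, and the leftmost is Pax3, whose value depends on the prior count. Other genes are circles, filled where the edgeR adjusted p is under 0.05, and the shaded bands hold the middle 50% and 90% of all tested genes. List medians are -1.73 for the members, -0.46 for the other factors of their territory and -0.15 for the isthmus and FGF feedback genes. They are 0.24 for the dopamine, serotonin and GABA neuron genes, 1.61 for the telencephalon factors and 0.15 for the Hox genes. The members were chosen on this contrast and the lists written with earlier results known, so these medians are no test of a regional pattern.

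The CUT&Tag data ask whether the mapped chromatin feature differed at these genes. Of the 10 members, 8 have at least 1 assigned region, and Foxb1 and Pax3 have none. Gata3 has 8 regions, Otx1 has 7, En2 has 3, En1 and Pax7 have 2 each, and Lmx1b, Otx2 and Barhl2 have 1 each. Of the 25 regions, 6 are annotated as promoter and 18 lie more than 10 kb from the assigned start. A peak had been called by the authors in a single library for 17 of the 25 (63.5% of all regions), 12 of the 25 were marked in KO libraries only (51.3% of all regions) and 5 in WT libraries only (19.2% of all regions), shares near those of all regions. The 3 regions marked in all 4 libraries (10.0% of all regions) all belong to Gata3.

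In none of the 25 regions did the signal differ between the groups past the threshold. With edgeR's quasi-likelihood test and Benjamini-Hochberg adjustment over all 69209 tested regions, 0 of 25 were called and the smallest adjusted p was 0.932, where 5 of all regions (0.00722%) were called. At an unadjusted p under 0.05, 2 of the 25 stood out by edgeR and 0 by DESeq2, beside 5.35% of all regions by edgeR. In the authors' deposited table, 0 of the 25 have a p-value under 0.05. The SE of a region's log2 fold change ran from 0.15 to 0.68, and a p above the threshold does not show that the groups were alike. Log2 fold changes ran from -0.94 to 0.75, with 14 negative and 11 positive, and their median was -0.02 beside 0.01 for all regions. The groups did not overlap in 11 of the 25, and in 34.7% of all regions. Regions held a median of 31 to 44 reads per library, which limits the precision of each.

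At Lmx1b, the region lies 911 bp before the assigned start (GRCm39 chr2:33523206-33523405) and held 30 and 22 reads in KO libraries, against 44 and 26 in WT libraries. Scaled to the reads in regions, KO libraries had 7.32 and 6.52 CPM and WT libraries 14.2 and 9 CPM, so the groups did not overlap (log2 fold change -0.74, SE 0.42, edgeR adjusted p = 0.933). At Otx2, the region lies 2747 bp after the assigned start (chr14:48896443-48896642) and held 40 and 22 reads in KO libraries, against 14 and 15 in WT libraries. The Otx2 groups did not overlap either and stood in the other order, KO above WT (log2 fold change 0.75, SE 0.55, edgeR adjusted p = 0.933). RNA of both genes was lower in KO, and neither CUT&Tag difference passed the test. The authors' deposited table gives p-values of 0.281 for the Lmx1b region and 0.253 for the Otx2 region.

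At the engrailed genes, the region nearest to En2 (chr5:28372081-28372291, 1389 bp after the start) had 7.32 and 9.19 CPM in KO libraries, against 13.6 and 9 CPM in WT libraries, which overlap (log2 fold change -0.46, SE 0.41, edgeR adjusted p = 0.934). A second En2 region 22140 bp before the start had 6.34 and 11.3 CPM in KO libraries, against 6.15 and 4.84 CPM in WT libraries (log2 fold change 0.66, SE 0.51, edgeR adjusted p = 0.934). The En1 regions, 15460 and 22057 bp before the start, differed by 0.02 (SE 0.37) and 0.05 (SE 0.52) on the log2 scale. At Otx1, the promoter region 1534 bp before the start (chr11:21954431-21954756) had 14.6 and 13.3 CPM in KO libraries, against 17.5 and 22.5 CPM in WT libraries. These Otx1 groups did not overlap, and the difference did not pass the test (log2 fold change -0.51, SE 0.29, edgeR adjusted p = 0.933). The other Otx1 regions had log2 fold changes between -0.44 and 0.49.

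Gata3 carried the strongest signal of the members. Its region 97241 bp after the start (chr2:9779909-9781242, 1334 bp long) had 78.8 and 80.0 CPM in KO libraries, against 90.2 and 100.4 CPM in WT libraries, higher per kb than 94.7% of all regions (log2 fold change -0.26, SE 0.15, edgeR adjusted p = 0.933). The Gata3 promoter region 875 bp before the start (chr2:9884286-9884747) had 19.0 and 28.5 CPM in KO libraries, against 16.2 and 25.6 CPM in WT libraries, with wide overlap (log2 fold change 0.18, SE 0.25). The lowest log2 fold change of all 25, -0.94 (SE 0.46, edgeR adjusted p = 0.932), was at the Gata3 region 72791 bp after the start, with 7.07 and 4.15 CPM in KO libraries, against 14.6 and 7.27 CPM in WT libraries. That region and a Pax7 region 22065 bp before the start are those under an unadjusted p of 0.05. The Pax7 region had 18.5 and 14.8 CPM in KO libraries, against 11.6 and 9.69 CPM in WT libraries (log2 fold change 0.65, SE 0.33, edgeR adjusted p = 0.932). Gata3 had the most regions and reads of the 8 members and, apart from Pax7, the lowest RNA level. Those totals depend on how far regions are assigned to a gene. The region at 97241 bp alone held 323 of the 683 Gata3 reads in KO 1. A link between the assigned reads and the RNA level was not tested. The Barhl2 region, 28985 bp from the start, had 7.32 and 3.26 CPM in KO libraries, against 3.56 and 7.27 CPM in WT libraries, a log2 fold change of -0.01 (SE 0.65).

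**Figure D4:**
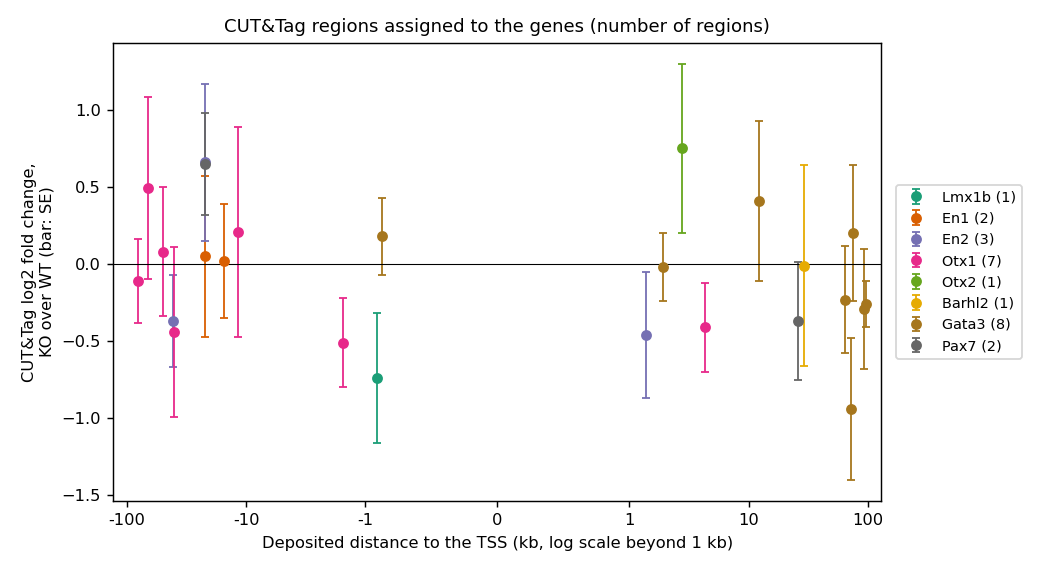
CUT&Tag log2 fold change, KO over WT, of the 25 regions assigned to 8 members, with the SE as a bar, against the deposited distance to the TSS (transcription start site) in kb, negative before the start, linear within 1 kb and logarithmic beyond. Values lie on both sides of 0, from -0.94 at a Gata3 region to 0.75 at the Otx2 region.

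Summed over all regions of a gene, the CUT&Tag reads again gave no call for a member. Of the 8 members, 0 were called by edgeR, with a smallest adjusted p of 0.784, and 0 had an unadjusted p under 0.05 by edgeR or DESeq2, while 40 of 27448 genes (0.146%) were called. Log2 fold changes of the sums were -0.73 (SE 0.44) for Lmx1b, -0.18 (SE 0.13) for Otx1, -0.16 (SE 0.21) for En2, -0.14 (SE 0.09) for Gata3, 0.01 (SE 0.63) for Barhl2, 0.05 (SE 0.28) for En1, 0.21 (SE 0.24) for Pax7 and 0.77 (SE 0.57) for Otx2. The SE was smallest for Gata3 (565 to 683 reads per library) and Otx1 (245 to 303 reads) and largest for Barhl2 (11 to 30 reads). Without a spike-in, a change of signal common to all regions could not be measured.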

How the data were processed

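RNA-seq and CUT&Tag tables were used as deposited. The RNA-seq table holds the authors' expected counts per gene (8428 genes have a non-whole value), rounded for the tests, and the CUT&Tag table the authors' counts per merged region with peak marks, assigned gene and distance. The deposited RPM, ratio (log2 fold change) and p-value and q-value columns are the authors', the q-value being 1 for all members' regions. HISAT2, StringTie and GRCm39 stand in the submitters' processing notes, and a stranded poly(A) kit in the labels. The read counting (its strand setting and annotation included) and the peak calling are both not given in the sources used here.

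Both count tables were fitted with edgeR 4.0.16 in R 4.3.3 (TMM, filterByExpr with a minimum count of 10, robust quasi-likelihood F test, Benjamini-Hochberg over all tested features, threshold 0.05), KO against WT, without covariates, and tested on simulated data. SE is the absolute log2 fold change over the root of F. TPM use the deposited gene lengths. The alternatives tried were DESeq2 1.42.0, scaling by RLE size factors or by library totals, a filter of 1 CPM (in 3 libraries for RNA-seq, in 2 for CUT&Tag) or none, a replicate block, the mitochondrial split as a covariate (RNA-seq), promoter regions or regions within 10 kb (CUT&Tag sums), and each library left out, where a CUT&Tag library left alone in its group takes its spread from the other group.

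The members and lists were chosen with earlier results of these data known. Named were all members, up to 6 called genes per list by smallest p (the 2 smallest where fewer than 2 were called), called neighbours, each member's region nearest the start and that with the smallest p, and Riox2. Fgf8, Wnt1, Wnt3a, Th, Pax6, Map2, Snap25, Otx2os1 and the uncalled neighbours were added after their values were seen. Not every gene that the rule names is reported here. Of the marker lists, those of stem and glia (16 genes: Hopx and Slc1a3 lower, Vim higher in KO) and of neural crest and mesenchyme (12 genes: Foxc1 lower, Twist1 higher in KO) gave the calls named, each lost without KO 1.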

Additional observations from a re-analysis of the deposited data

How the results depend on the processing

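The count of members under the threshold in RNA-seq, 7, which is no test of them, was 4 to 7 with a library left out, 4 being without WT 3. That count was 6 with library totals and with the replicate block. It was 8 with DESeq2 and without a count filter, and 9 with the mitochondrial covariate. The titles do not say that replicate numbers pair libraries, so they were not taken to do so. Same-numbered RNA-seq libraries deviated together with r of 0.609, -0.517 and 0.312, and CUT&Tag libraries with 0.0156. These r cannot decide pairing. RNA-seq libraries 1 and 3 each share a mitochondrial class between KO and WT and libraries 2 do not. With 2 libraries per group, both CUT&Tag values are equal by construction. The replicate block gave 229 called genes, 1 other regional factor and 9 called regions. Against 525 called genes, DESeq2 gave 958, the mitochondrial split as a covariate 1695 and leaving out a library 145 to 506. Against 3 called other regional factors, RLE size factors and the filter of 1 CPM gave 5 each, DESeq2 6, the mitochondrial covariate 10 and leaving out a library 1 to 3. Against 1 called neighbour, DESeq2 and the mitochondrial covariate gave 2 each. Against 5 called regions, DESeq2 gave 8 and leaving out a library 1 to 15. Against 40 genes called by summed reads, DESeq2 gave 11, promoter regions alone 6, regions within 10 kb 9 and leaving out a library 7 to 55. The members' 0 calls in CUT&Tag held in each of these settings. Uncalled CUT&Tag values near 0 changed sign. With a library left out, summed reads gave -0.04 to 0.14 for En1, -0.50 to 0.13 for En2 and -0.71 to 0.60 for Barhl2 (-0.01 with the block). Gata3 sums gave 0.15 from promoter regions and 0.11 within 10 kb. Single regions gave -0.24 to 0.23 (En1, 15460 bp), -0.28 to 0.44 (En1, 22057 bp), -0.13 to 0.54 (Gata3, 875 bp) and -0.72 to 0.58 (Barhl2, 0.02 with library totals). The cause of these changes was not tested. Depth limits Pax7, Gata3 and Pax3 in RNA-seq and the single regions in CUT&Tag.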
